A study of Eriocheir sinensis with 6 samples.

Results

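First-intron peaks are stretches of open chromatin that lie in the intron nearest the start of a gene. In the deposited table of merged ATAC-seq peaks of Chinese mitten crab (Eriocheir sinensis) muscle, they were taken as the rows on sequences named CM whose annotation placed them in intron 1 of a transcript. There were 7968 such peaks among 104657 merged peaks, and 164 further first-intron peaks on other sequences were not included. The comparison asks where accessibility inside first introns differed between 3 post-molt crabs (stage A, after the old exoskeleton was shed) and 3 pre-molt crabs (stage D, before the shed). The crabs were healthy, farmed and untreated, all 6 samples carry 1 weight label (8.41 ± 1.47 g), and no strain or genotype is named. The study's methods describe juvenile crabs and walking-leg muscle, with 1 crab per library. Libraries of a stage thus differ both as animals and as library preparations, and p-values weigh the stage difference against that spread. Sex is stated only for crabs caught in the act of molting, which are not analysed here. All changes are post-molt over pre-molt.

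An intron is a stretch of a gene that is transcribed and then spliced out of the RNA. In many animals the first intron is the longest of a gene, and it often carries enhancers and other elements through which transcription is controlled. In ATAC-seq the Tn5 transposase inserts adapters where DNA is not wrapped around nucleosomes, so a peak inside an intron marks DNA that proteins can reach.

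The libraries held between 41050903 and 51652893 reads, of which 10992785 to 16985168 lay in merged peaks. Pre-molt replicate 2 stood apart with 36.7% of its reads in peaks, against 23.8% to 27.9% in the other libraries. The median first-intron peak held 55, 64.5 and 55 reads in post-molt replicates 1, 2 and 3, against 48, 58.5 and 43 reads in pre-molt replicates 1, 2 and 3. The libraries come from whole tissue, so fewer cells of a type and less open chromatin per cell cannot be told apart. The gene IDs of the table carry no names, so the muscle label could not be checked against marker genes, and genes are given here by their IDs in the published E. sinensis genome.

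The first-intron peaks lay on 72 sequences and in 2041 introns, 1 intron for each gene. The median intron held 2 of them and the fullest held 56, and 860 introns held a single one. The 193 introns with 10 or more peaks held 3375 peaks, 42.4% of the total. The annotation also links each peak to the nearest start site. For 6280 peaks (78.8%) this was the start site of the gene whose intron held the peak, and for 1688 (21.2%) it was that of another gene. Distances to the linked start site reached 265585 bp, with a median of 15564 bp and a smallest value of 3002 bp, because the annotation calls peaks within 3000 bp of a start site promoter peaks first. The first-intron class therefore leaves out the part of each intron closest to its promoter. Host genes were long, with a median of 32787 bp against 7986 bp for all linked genes. The peaks were 332 bp wide at the median, against 310 bp for later-intron peaks and 347 bp for all merged peaks.

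Peaks in first introns changed between the stages more often than merged peaks in general. Most of these changes were upward, as they were over all merged peaks. In the edgeR test across all merged peaks with Benjamini-Hochberg adjustment, 885 first-intron peaks (11.1%) were higher and 452 (5.67%) were lower post-molt at an adjusted p below 0.05. Over all merged peaks 6.08% were higher and 3.86% lower. The median log2 change was 0.11 over first-intron peaks and -0.03 over all merged peaks. Of the peaks past the threshold, the higher ones changed by a median log2 of 1.71 (3.28-fold) and the lower ones by -1.40 (2.64-fold lower). These sizes were close to those over all merged peaks, 1.71 and -1.43. All 3 post-molt libraries lay above all 3 pre-molt libraries in CPM (read counts scaled to library size) at 1802 first-intron peaks (22.6%), against 15.0% of all merged peaks. The reverse order was seen at 1110 (13.9%), against 12.1%.

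The counts leaned on single libraries. Without post-molt replicate 2 they came to 352 higher and 166 lower peaks, without pre-molt replicate 3 to 409 higher and 345 lower, without pre-molt replicate 2 to 253 lower and without post-molt replicate 3 to 230 lower. The higher share exceeded that of all merged peaks in each of these fits, at 4.42% against 2.29% without post-molt replicate 2. So did the lower share, at 2.08% against 1.53% without post-molt replicate 2. Of the higher and lower calls of the main fit together 66.2% were higher. The lean upward was not particular to first introns. In later introns 950 of 1437 calls were higher, and over all merged peaks 6366 of 10410. The first-intron share was 54.2% without pre-molt replicate 3 and 59.0% without pre-molt replicate 1 (655 higher, 456 lower). It was 76.9% (1143 higher, 344 lower) when libraries were scaled by total reads in peaks alone, a scaling that puts the median log2 change of all merged peaks at 0.13. Over all merged peaks the calls were 2952 higher and 2930 lower without pre-molt replicate 3, and 4690 and 4043 without pre-molt replicate 1. With that scaling they were 8328 higher and 3031 lower, so the direction of calls shifted over all merged peaks too. Post-molt replicate 2 was the highest post-molt library at 545 of the 885 higher peaks (61.6%), and pre-molt replicate 2 was the highest pre-molt library at 346 of the 452 lower peaks (76.5%). Over all merged peaks the same libraries were highest at 63.1% of the higher and 66.5% of the lower peaks. The part of these libraries in the result was not tested beyond leaving each out.

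**Figure D1:**
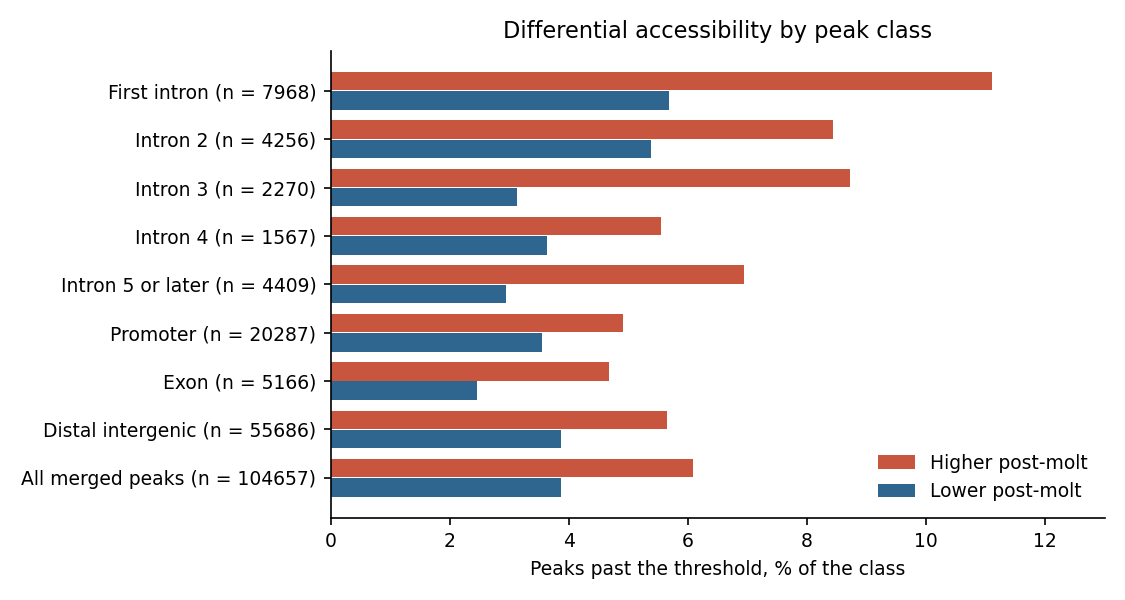
Share of peaks past the threshold of the edgeR test (adjusted p below 0.05) in each class of the annotation, in percent of the class, with the number of peaks in brackets. In each pair the upper bar is peaks higher and the other bar peaks lower post-molt, and the first-intron bars reach 11.1% and 5.67%, against 6.08% and 3.86% for all merged peaks.

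Of 12502 later-intron peaks, 950 (7.60%) were higher and 487 (3.90%) lower post-molt, with a median log2 change of 0.09. By position, 8.44% of the peaks in intron 2 were higher and 5.38% lower, and in intron 3 these shares were 8.72% and 3.13%. In intron 4 the shares were 5.55% and 3.64%, and in intron 5 or later 6.94% and 2.95%. The higher share of first-intron peaks lay above each of these. Peaks in 5′ UTRs (140 peaks) had 8.57% higher and 3.57% lower, and those in 3′ UTRs (686 peaks) 7.29% and 4.52%. Promoter peaks had 4.90% higher and 3.54% lower, exonic peaks 4.67% and 2.46%, and distal intergenic peaks 5.65% and 3.87%. These are counts over neighbouring peaks of the same 6 libraries, and the difference between classes in these shares was not tested.

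Per library, 3 values compared first-intron peaks as a whole between the stages, each by an exact two-sided permutation test, in which 3 against 3 libraries cannot give a p below 0.1. First-intron peaks took 7.44%, 7.38% and 7.26% of the reads in merged peaks in post-molt replicates 1, 2 and 3, against 6.88%, 7.94% and 6.64% in pre-molt replicates 1, 2 and 3. The means were 7.36% ± 0.09 post-molt and 7.15% ± 0.69 pre-molt (SD, n = 3 each), and the exact p was 0.6 (0.8 adjusted over the 3 tests). The groups overlapped, with pre-molt replicate 2 above all post-molt libraries.

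The mean log2 CPM of first-intron peaks was above that of later-intron peaks in every library, by 0.29, 0.27 and 0.22 in post-molt replicates 1, 2 and 3 and by 0.14, 0.36 and 0.18 in pre-molt replicates 1, 2 and 3. The stages did not differ beyond this spread, with 0.26 ± 0.04 post-molt and 0.23 ± 0.12 pre-molt (SD, n = 3 each, exact permutation p = 0.7, 0.8 adjusted). A peak call of the authors lay in 43.2%, 49.8% and 43.8% of first-intron peaks in the post-molt libraries, against 36.3%, 51.1% and 42.6% in the pre-molt libraries (exact permutation p = 0.8, 0.8 adjusted, n = 3 each). None of the 3 values showed a difference between the stages beyond the spread of the libraries.

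The direction of change went with the strength of the peak. Merged peaks were divided into quartiles by mean read count over the 6 libraries. Among first-intron peaks, the share higher post-molt was 6.23% in the weakest quartile, 15.0% and 15.4% in the middle ones and 7.21% in the strongest. The share lower was 0.50%, 2.17%, 4.98% and 14.3% in the same order. Over all merged peaks the higher share was 3.15%, 7.76%, 9.13% and 4.30%, and the lower share 0.52%, 1.64%, 3.66% and 9.64%. First-intron peaks thus had the larger higher share in every quartile, and the larger lower share in all but the weakest. The median log2 change of first-intron peaks was 0.36, 0.30, 0.17 and -0.28 from the weakest to the strongest quartile. With offsets fitted by loess to remove a trend of change with read count, 786 first-intron peaks were higher and 409 lower. These were 9.86% and 5.13% of first-intron peaks, against 5.45% and 3.51% of all merged peaks.

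**Figure D2:**
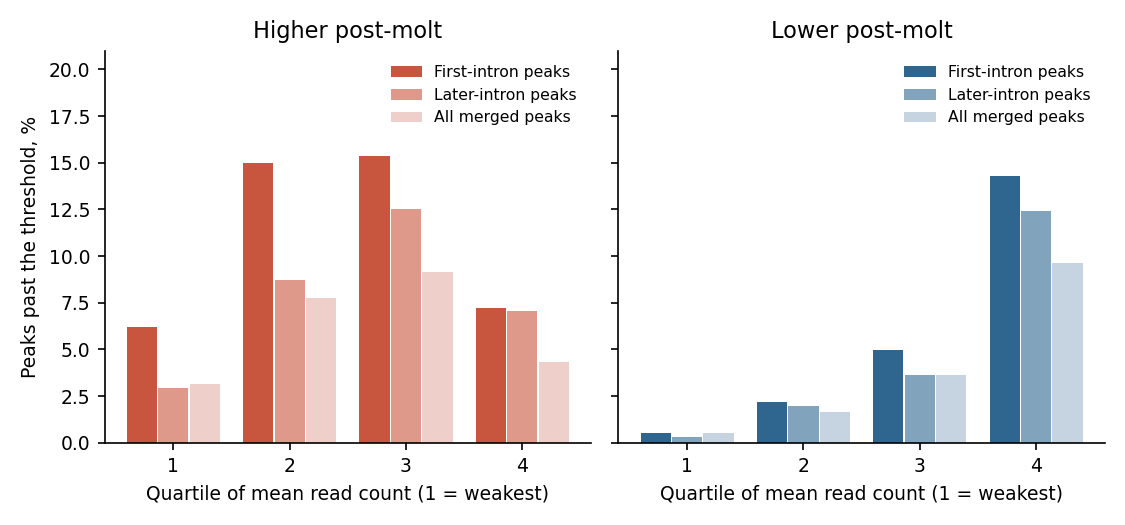
Share of peaks past the threshold, in percent, by quartile of mean read count over the 6 libraries (1 is the weakest), for first-intron, later-intron and all merged peaks. On the left are peaks higher post-molt, 6.23% to 15.4% of first-intron peaks, and on the right peaks lower post-molt, 14.3% of first-intron peaks in the strongest quartile and 0.50% in the weakest.

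The shares varied little with distance to the start site and with the number of introns. Of the 845 peaks within 5 kb of the linked start site, 9.94% were higher and 5.68% lower post-molt. The shares were 10.8% and 5.91% at 5 to 10 kb (1845 peaks), 11.7% and 4.94% at 10 to 30 kb (3077 peaks), and 11.04% and 6.50% beyond 30 kb (2201 peaks). In later introns the higher share lay between 6.88% and 7.78% in the same bins. First introns of transcripts with a single intron had 10.99% higher and 6.26% lower, and those of transcripts with 10 or more introns 10.1% and 5.86%. Peaks linked to another gene's start site had 11.9% higher and 5.75% lower, close to the 10.9% and 5.65% of peaks linked to the gene that held them.

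Higher peaks were spread unevenly over the genome. On the 62 sequences with at least 50 first-intron peaks, the higher share ranged from 1.28% to 20.5% with a median of 11.1%, and the lower share from 0.75% to 13.8% with a median of 5.28%. In 48 of these 62 sequences the higher share of first-intron peaks was above that of the other peaks of the sequence, and in 44 the lower share was. CM024136.1 held the most first-intron peaks, 283, of which 19.1% were higher and 3.53% lower, against 10% and 4.29% of its other peaks. Of its 54 higher first-intron peaks, 27 lay in 1 intron, described below, so its share leaned on that intron. On CM024137.1, 9.32% of 161 first-intron peaks were higher and 12.4% lower, against 1.35% and 1.57% of the other peaks there.

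The authors' peak calls give presence and absence in each library, and calls in all libraries of 1 stage alone leaned to pre-molt, unlike the edgeR calls. Of the first-intron peaks, 1299 (16.3%) were called in all 6 libraries and 3426 (43.0%) in 1 library only. A call in all 3 post-molt and no pre-molt libraries was seen at 166 peaks (2.08%), of which 120 were higher in the edgeR test and 0 lower. The same pattern held at 1.40% of all merged peaks. A call in all 3 pre-molt and no post-molt libraries was seen at 201 peaks (2.52%), against 1.68% of all merged peaks, and 99 of the 201 were lower.

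Named here are the 8 peaks with the largest log2 change in each direction, among those past the threshold with no overlap between the stages and a mean of at least 1 CPM. The largest increase was at a 200 bp peak in the first intron of evm.TU.CM024116.1.113 (CM024116.1, 3181208 to 3181407). It held 34, 4 and 38 reads in post-molt replicates 1, 2 and 3, against 3, 0 and 1 reads in pre-molt replicates 1, 2 and 3, where a count of 0 in pre-molt replicate 2 allows up to 3 reads or 0.21 CPM. The log2 change was 4.20 ± 1.09 (SE, edgeR adjusted p = 0.0165), and at such counts its size depends on the prior count of the fit. Of the 31 first-intron peaks of this gene it was the only higher one, and 4 were lower. The call was lost in 5 of 15 alternatives: both limma fits, and without post-molt replicate 3, pre-molt replicate 2 or pre-molt replicate 3.

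Next was a peak in the first intron of evm.TU.CM024160.1.397 (CM024160.1, 15476051 to 15476304), 10231 bp from the start site. Its levels were 1.81, 5.04 and 1.84 CPM in post-molt replicates 1, 2 and 3, against 0.0811, 0.210 and 0.174 CPM in pre-molt replicates 1, 2 and 3. The change was 4.13 ± 0.80 on the log2 scale (SE, adjusted p = 0.00252, edgeR). Post-molt replicate 2 was highest, and the lowest post-molt library was still well above the pre-molt ones.

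The most deeply covered of the 8 increases lay in the first intron of evm.TU.CM024121.1.540 (CM024121.1, 19815142 to 19815746), 6569 bp from the start site. It had 3.44, 27.7 and 9.86 CPM in post-molt replicates 1, 2 and 3, against 0.974, 0.630 and 1.13 CPM in pre-molt replicates 1, 2 and 3. The log2 change was 3.91 ± 0.57 (SE, edgeR adjusted p = 0.00036), and 3 of the 4 first-intron peaks of this gene were higher. A single-peak intron, that of evm.TU.CM024154.1.291 (CM024154.1, 9047885 to 9048143), had 0.861, 14.03 and 5.18 CPM in the post-molt libraries, against 0.568, 0.350 and 0.522 CPM in the pre-molt libraries. Post-molt replicate 2 was far above the other post-molt libraries and post-molt replicate 1 only just above the pre-molt ones, and the log2 change was 3.79 ± 0.68 (SE, edgeR adjusted p = 0.00159).

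In the first intron of evm.TU.CM024140.1.104 (CM024140.1, 3746021 to 3746280) the levels were 1.98, 12.5 and 4.09 CPM post-molt, against 0.649, 0.280 and 0.609 CPM pre-molt, a log2 change of 3.60 ± 0.61 (SE, edgeR adjusted p = 0.000924). All 3 first-intron peaks of this gene were higher, as were 6 of the 9 of evm.TU.CM024129.1.203 (log2 change of its named peak 3.40) and all 3 of evm.TU.CM024133.1.117 (3.89). The last of the 8 lay in evm.TU.CM024160.1.498 (3.73), and its nearest start site was that of the neighbouring gene. In 7 of the 8, post-molt replicate 2 was the highest library. Without it 3 of the 8 missed the threshold (evm.TU.CM024133.1.117, evm.TU.CM024160.1.498 and evm.TU.CM024129.1.203, with log2 changes of 2.59, 2.30 and 2.39), and all 8 stayed above 2.30. Under every alternative fit, 3 of the 8 were past the threshold (evm.TU.CM024121.1.540, evm.TU.CM024154.1.291 and evm.TU.CM024140.1.104).

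**Figure D3:**
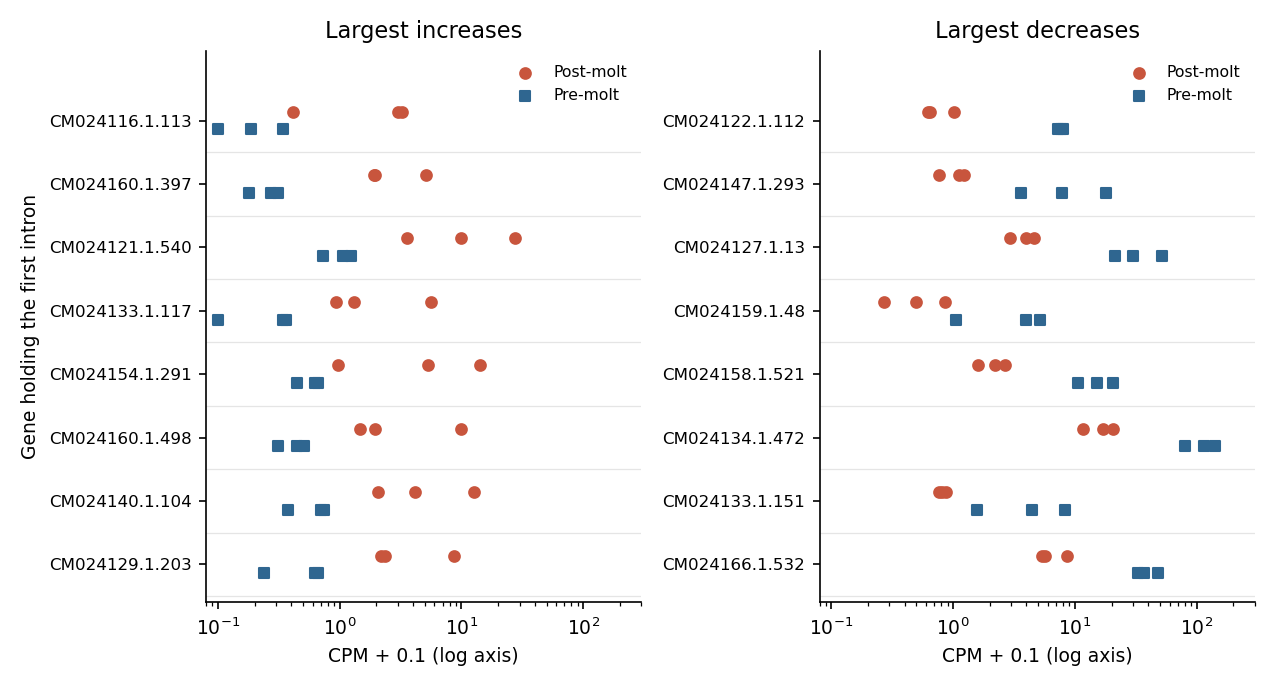
CPM + 0.1 on a log axis in each library for the 8 first-intron peaks with the largest increases (left) and the 8 with the largest decreases (right), named by gene without the prefix evm.TU. Circles are the 3 post-molt and squares the 3 pre-molt libraries, and the stages do not overlap at any of these peaks because the choice required it.

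The named decreases were mostly at stronger peaks than the increases, though not all were even across libraries. The largest decrease was at a peak in the first intron of evm.TU.CM024122.1.112 (CM024122.1, 3806906 to 3807257), 16912 bp from the start site. It had 0.516, 0.552 and 0.919 CPM in post-molt replicates 1, 2 and 3, against 7.14, 7.91 and 7.66 CPM in pre-molt replicates 1, 2 and 3. The levels within a stage were close together, and the log2 change was -3.50 ± 0.43 (SE, edgeR adjusted p = 8.25e-05).

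A broader peak of 855 bp in the first intron of evm.TU.CM024127.1.13 (CM024127.1, 447144 to 447998) had 4.48, 3.86 and 2.84 CPM in the post-molt libraries, against 52.2, 29.9 and 21.1 CPM in the pre-molt libraries. It fell by 3.20 ± 0.38 on the log2 scale (SE, edgeR adjusted p = 7.46e-05). The stages were well apart, with pre-molt replicate 1 the highest.

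The strongest of the 8 was a peak of 1238 bp in the first intron of evm.TU.CM024134.1.472 (CM024134.1, 20455570 to 20456807), 3145 bp from the start site and so just outside the promoter class. It had 20.3, 11.5 and 16.8 CPM post-molt, against 114, 142 and 80.6 CPM pre-molt, with a log2 change of -2.80 ± 0.34 (SE, edgeR adjusted p = 7.74e-05). The authors' lists call it in post-molt replicates 1 and 3 and in all 3 pre-molt libraries, with no call in post-molt replicate 2. In the first intron of evm.TU.CM024166.1.532 (CM024166.1, 18577343 to 18577708) the levels were 8.52, 5.28 and 5.60 CPM post-molt, against 37.1, 48.2 and 33.1 CPM pre-molt, with a log2 change of -2.61 ± 0.33 (SE, edgeR adjusted p = 0.000107).

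The remaining named decreases lay in evm.TU.CM024147.1.293 (log2 change -3.37), evm.TU.CM024159.1.48 (-2.88), evm.TU.CM024158.1.521 (-2.88) and evm.TU.CM024133.1.151 (-2.69). That of evm.TU.CM024147.1.293 was uneven, with 7.79, 17.9 and 3.48 CPM in pre-molt replicates 1, 2 and 3, against 1.12, 1.02 and 0.668 CPM post-molt. Of the 8 decreases, 6 were past the threshold under every alternative, and the exceptions were those of evm.TU.CM024159.1.48 and evm.TU.CM024133.1.151, where pre-molt replicate 3 was low, at 0.957 and 1.48 CPM against 5.04 and 8.12 CPM in pre-molt replicate 2. Pre-molt replicate 2 was the highest library at 6 of the 8.

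The 4 first-intron peaks of highest mean CPM did not pass the threshold in the main fit, and 1 of them did with loess offsets. The strongest, in the first intron of evm.TU.CM024166.1.357 (CM024166.1, 9829279 to 9831685), had 346, 296 and 276.5 CPM in post-molt replicates 1, 2 and 3, against 356, 633 and 363 CPM in pre-molt replicates 1, 2 and 3. The log2 change was -0.56 ± 0.30 (SE, edgeR adjusted p = 0.266), although every pre-molt library was above every post-molt library. The next, in the fused gene model evm.TU.CM024135.1.299_evm.TU.CM024135.1.300, had 307, 273 and 260 CPM post-molt, against 222, 341 and 208 CPM pre-molt (log2 change 0.13 ± 0.29, SE, edgeR adjusted p = 0.84). With loess offsets this peak was higher, with a log2 change of 0.73 (edgeR adjusted p = 0.0028). Those of evm.TU.CM024164.1.389 and evm.TU.CM024141.1.156 had log2 changes of -0.29 ± 0.29 and -0.26 ± 0.30 (SE, edgeR adjusted p = 0.597 and 0.66). All 4 were between 2112 and 2407 bp wide, against a median of 332 bp for first-intron peaks, and were called in all 6 libraries.

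Peaks of the same intron moved together. Of 580 introns with a peak past the threshold, 355 held only higher and 199 only lower ones. Among the 271 introns with at least 2 such peaks, 165 held only higher, 80 only lower and 26 both, so 90.4% had a single direction. The log2 changes of neighbouring peaks of 1 intron had a Spearman's rho of 0.60 over 5927 pairs, 0.70 where the gap was up to 1 kb (2033 pairs) and 0.41 where it was over 20 kb (170 pairs). Where both neighbours of such a pair were past the threshold, 432 of 438 pairs had the same sign. Neighbouring first-intron peaks that lay in different introns of a sequence had a rho of 0.05 over 1969 pairs, at a median gap of 291702 bp against 2111 bp within introns. These pairs share libraries and are given as a description, and gap and intron cannot be told apart here, as only 49 pairs in different introns were within 20 kb (rho 0.48).

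With the reads of all peaks of an intron summed, so that each intron counts once, 196 of 2041 first introns (9.60%) were higher and 79 (3.87%) lower post-molt in the edgeR test. Over these introns and all other peaks together 5.66% were higher and 3.54% lower, so the lower share was close to the background. Most rows of this background were single peaks, while an intron summed up to 56, so the units differ. The higher introns changed by a median log2 of 1.64 and the lower ones by -1.31. Without post-molt replicate 2 the counts were 66 higher (3.23%, against 2.04% of the background) and 24 lower (1.18%, against 1.36%). Without pre-molt replicate 3 there were 103 higher (5.05%, against 2.52%). Without post-molt replicate 1 there were 48 lower (2.35%, against 2.53%), and without post-molt replicate 3 there were 35 lower (1.71%, against 1.84%). The lower share was thus just below the background without any 1 post-molt library, and above it without any 1 pre-molt library. With limma on log2(fold enrichment + 1), 4.46% of introns were higher, against 4.06% of the background. Of the intron calls of the main fit 71.3% were higher, against 81.6% with loess offsets (298 higher, 67 lower). Over the background the calls were 5587 higher and 3496 lower, and with loess offsets 5133 higher and 3242 lower.

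The calls were concentrated in part of the introns. The 50 introns with the most higher peaks held 365 of the 885 (41.2%), and the 50 with the most lower peaks held 235 of the 452 (52.0%). The first intron of the fused model evm.TU.CM024136.1.473_evm.TU.CM024136.1.474 (peaks from 16849682 to 16990271 on CM024136.1, a span of 141 kb) had the most. Of its 48 peaks 27 were higher and 1 was lower, and the higher ones were scattered over 135 kb, with at most 5 in a row. Its summed level was 690, 752 and 689 CPM in post-molt replicates 1, 2 and 3, against 512, 495 and 356 CPM in pre-molt replicates 1, 2 and 3. The stages did not overlap, but the summed change of 0.65 ± 0.27 on the log2 scale missed the threshold (SE, edgeR adjusted p = 0.148), and passed it without pre-molt replicate 2 and with library totals (adjusted p = 0.0177 and 0.012). The strongest peak, at 16961368 to 16963285, had 95.3, 88.8 and 95.2 CPM post-molt, against 103, 121 and 79.2 CPM pre-molt, a log2 change of -0.12.

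The fullest intron was that of evm.TU.CM024125.1.54 (56 peaks from 1286503 to 1434061 on CM024125.1), which is the only intron of its transcript. Of its peaks 19 were higher and 0 lower, and 48 of the 56 had a positive log2 change. The summed level was 449, 339 and 443 CPM post-molt, against 250, 347 and 250 CPM pre-molt, so that the stages overlapped through replicate 2 of each (log2 change 0.54 ± 0.28, SE, edgeR adjusted p = 0.257, but 0.0204 without pre-molt replicate 2 and 0.0296 with library totals). In the first intron of evm.TU.CM024097.1.155 (34 peaks from 4582872 to 4672954 on CM024097.1) 13 peaks were higher and 0 lower, with a summed log2 change of 0.30 ± 0.28 (SE, edgeR adjusted p = 0.568). With loess offsets all 3 of these introns were higher as sums. The intron of evm.TU.CM024167.1.279 (51 peaks from 9555589 to 9824245 on CM024167.1) was as full but had only 4 higher and 1 lower peak. Its summed log2 change also rose with loess offsets, from -0.02 to 0.50, so this rise was not particular to the 3 introns above.

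Lower peaks gathered in other introns. That of evm.TU.CM024152.1.83 (53 peaks from 2210961 to 2484945 on CM024152.1) had 11 lower and 0 higher. Its summed level was 285, 231 and 230 CPM in post-molt replicates 1, 2 and 3, against 452, 570 and 448 CPM in pre-molt replicates 1, 2 and 3. The stages were apart, and the log2 change was -0.97 ± 0.28 (SE, edgeR adjusted p = 0.0298). This call was lost in 8 of 15 alternatives, among them both limma fits and each library left out except pre-molt replicate 2, with an adjusted p of up to 0.254. The intron of the fused model evm.TU.CM024142.1.67_evm.TU.CM024142.1.73 (45 peaks from 1595525 to 1755163 on CM024142.1) also had 11 lower peaks and 1 higher, with a summed log2 change of -0.68 ± 0.28 (SE, edgeR adjusted p = 0.134).

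A pair of introns tied next with 10 lower peaks. The short one, of evm.TU.CM024160.1.443 (14 peaks within 19.1 kb, 16573367 to 16592490 on CM024160.1), held 8 of them in a row. Its summed level was 127, 140 and 103 CPM post-molt, against 211, 413 and 242 CPM pre-molt, a log2 change of -1.22 ± 0.31 (SE, edgeR adjusted p = 0.0152) that missed the threshold without any 1 of the post-molt libraries. The gene's later introns held 5 peaks, of which 4 were lower, and its 3 promoter peaks did not pass the threshold. The intron of evm.TU.CM024158.1.521 (24 peaks from 20786527 to 20871171 on CM024158.1) had 298, 238 and 249 CPM post-molt, against 568, 879 and 508 CPM pre-molt, a log2 change of -1.31 ± 0.29 (SE, edgeR adjusted p = 0.00688). It lost the call without post-molt replicate 2 or 3 (adjusted p of up to 0.12).

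**Figure D4:**
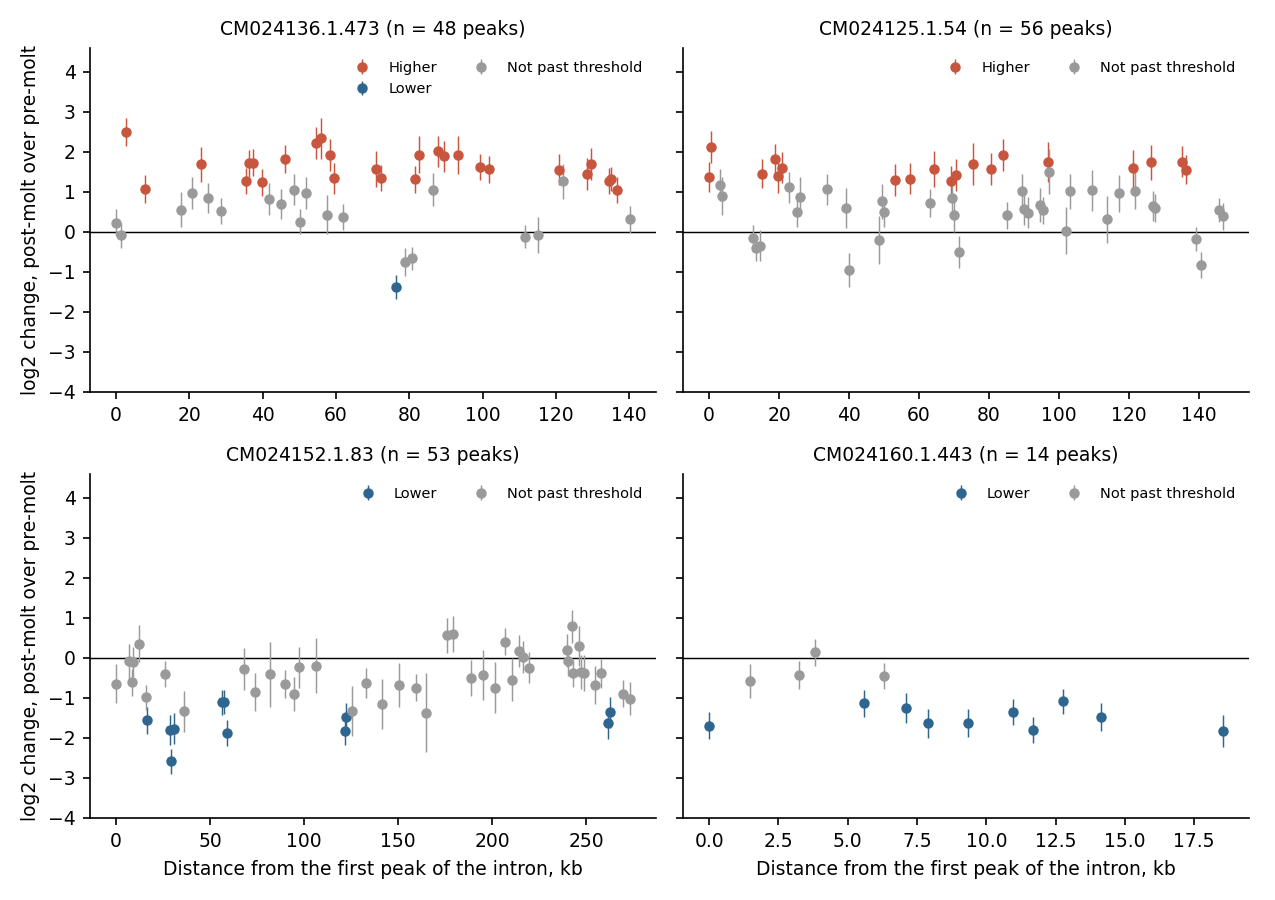
log2 change, post-molt over pre-molt, of every peak in 4 first introns against its distance in kb from the first peak of the intron, with bars of 1 SE. Points are coloured by the edgeR call, and the upper introns held 27 and 19 higher peaks among 48 and 56, while the lower introns held 11 and 10 lower peaks among 53 and 14.

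Changes in a first intron went with changes at the promoter and in the later introns of the same gene. Across 1555 genes with both, the median log2 change of the first-intron peaks and that of the promoter peaks had a Spearman's rho of 0.54, and across 871 genes the rho with later-intron peaks was 0.56. Of 315 genes with a higher and no lower first-intron peak, 92 (29.2%) had a higher promoter peak and 11 (3.49%) a lower one. Of 171 genes with a lower and no higher first-intron peak, 56 (32.7%) had a lower promoter peak and 6 (3.51%) a higher one. Where no first-intron peak passed the threshold (1043 genes), 6.33% had a higher and 5.85% a lower promoter peak. Most genes with a changed first-intron peak thus had no changed promoter peak. The 2 kinds of peak share the same libraries and lie near each other, so this too is a description.

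Gene symbols were available for 11 receptor genes that the study examined in the molt cycle, most of them G protein-coupled receptors, which pass signals from outside the cell to G proteins. The study chose them partly on these libraries, so they are not independent evidence of a direction. In 5 of them the first intron held peaks, 22 in all, of which 5 were higher and 4 lower post-molt. Over all first-intron peaks 11.1% were higher and 5.67% lower, and over all merged peaks 6.08% and 3.86%. FMRFaR, Kpna6, SSTR2, the rhodopsin-like gene and sky were among those with none.

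GRM7 (evm.TU.CM024146.1.116) is named for a metabotropic glutamate receptor. Of its 3 first-intron peaks, the one at 5209204 to 5209456 on CM024146.1 had 2.50, 5.75 and 2.92 CPM in post-molt replicates 1, 2 and 3, against 0.0811, 0.210 and 0.783 CPM in pre-molt replicates 1, 2 and 3. Every post-molt library was above every pre-molt one, and the log2 change of 3.38 ± 0.67 (SE, edgeR adjusted p = 0.00302) kept its call under all 16 alternatives. The peak at 5213515 changed by 1.93 ± 0.55 (adjusted p = 0.0263, edgeR) but by 1.05 without post-molt replicate 2, where the adjusted p was 0.42. It missed the threshold in 6 of 16 alternatives, the others being both limma fits and each pre-molt library left out. The peak at 5215531 had 2.58, 3.23 and 3.17 CPM post-molt, against 0.649, 0.770 and 1.39 CPM pre-molt, and just missed the threshold (log2 change 1.68 ± 0.54, SE, edgeR adjusted p = 0.0507). It passed in 7 of 16 alternatives, with an adjusted p down to 0.015.

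Both first-intron peaks of mth2 (evm.TU.CM024134.1.314), a gene of the Methuselah receptor family described in Drosophila, were higher. The stronger one, at 13421867 to 13422401 on CM024134.1, had 9.99, 8.51 and 4.18 CPM post-molt, against 2.68, 2.80 and 1.48 CPM pre-molt (log2 change 1.69 ± 0.41, SE, edgeR adjusted p = 0.01), and missed the threshold only without pre-molt replicate 3 (adjusted p = 0.0712). The other, at 13421329, changed by 1.63 ± 0.51 (edgeR adjusted p = 0.0431) and missed the threshold in 7 of 16 alternatives (adjusted p of up to 0.203), among them loess offsets and each library left out except post-molt replicate 3.

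All 4 first-intron peaks of moody (evm.TU.CM024100.1.415), which in Drosophila codes for a receptor of the glia that seal the blood-brain barrier, were lower. The peak at 16861574 to 16861972 on CM024100.1 had 2.24, 2.68 and 2.26 CPM in post-molt replicates 1, 2 and 3, against 7.55, 9.80 and 5.83 CPM in pre-molt replicates 1, 2 and 3. The stages were clearly apart, with a log2 change of -1.69 ± 0.37 (SE, edgeR adjusted p = 0.00541) that kept its call under all 16 alternatives. The strongest, at 16854768 to 16855913, had 16.4, 8.91 and 17.5 CPM post-molt, against 48.4, 47.7 and 22.6 CPM pre-molt (log2 change -1.48 ± 0.35, SE, edgeR adjusted p = 0.00975), and missed the threshold only without post-molt replicate 2 (adjusted p = 0.09). The peaks at 16856099 and 16862124 changed by -1.09 and -1.23. The first missed the threshold in 10 of 16 alternatives, among them library totals, loess offsets, both limma fits and each library left out except pre-molt replicate 3 (adjusted p of up to 0.206). The second missed it in 7 of 16, with library totals and with each library left out (adjusted p of up to 0.194).

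The 8 first-intron peaks of gpr161 (evm.TU.CM024164.1.176), whose vertebrate counterpart restrains Hedgehog signalling in the primary cilium, did not share a direction. The peak at 4992460 to 4992848 on CM024164.1 was higher, with 2.41, 6.39 and 2.84 CPM post-molt, against 1.46, 1.54 and 0.870 CPM pre-molt (log2 change 1.58 ± 0.49, SE, edgeR adjusted p = 0.042). Post-molt replicate 2 was the highest, and without it the change was 1.01 with an adjusted p of 0.39. The call was lost in 9 of 16 alternatives, among them loess offsets, both limma fits and each library left out except post-molt replicate 1. The other 7 had log2 changes between -0.91 and 1.42 and did not pass the threshold. Neither did the 5 peaks in the first intron of HTR4 (evm.TU.CM024104.1.157), named for a serotonin receptor, with log2 changes between -0.69 and 1.28. The strongest of these, at 6374707 to 6375318 on CM024104.1, had 18.4, 15.5 and 19.5 CPM post-molt, against 17.6, 15.0 and 19.4 CPM pre-molt (log2 change 0.04 ± 0.30, SE, edgeR adjusted p = 0.953).

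**Figure D5:**
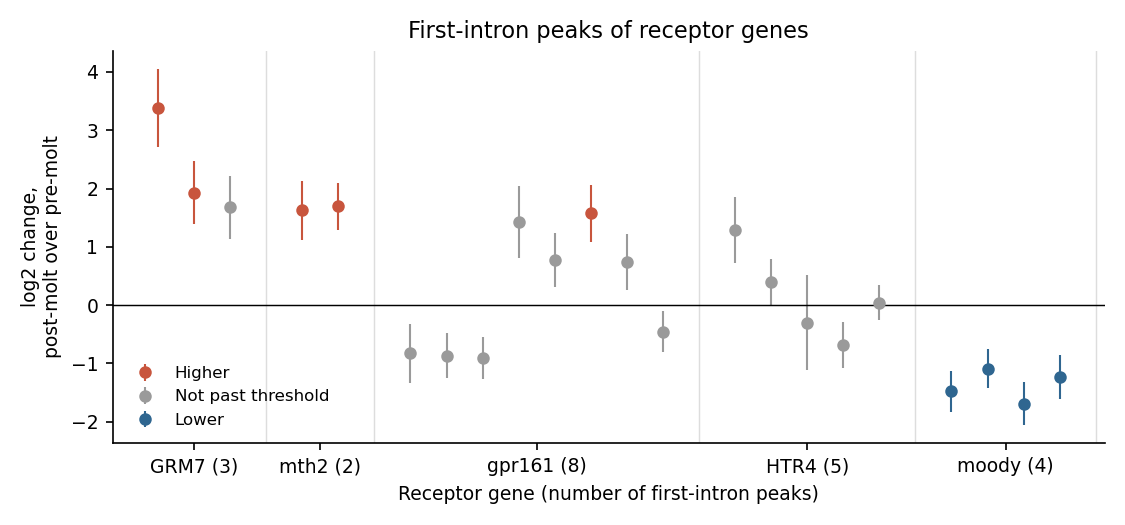
log2 change, post-molt over pre-molt, of the 22 first-intron peaks of 5 receptor genes, with bars of 1 SE and colours for the edgeR call, peaks ordered along the sequence within a gene. Higher peaks lie in GRM7, mth2 and gpr161, and all 4 peaks of moody are lower.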

How the data were processed

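Muscle of 3 post-molt and 3 pre-molt crabs was profiled by ATAC-seq with paired reads of 150 bases. Per the submitters' processing notes, the authors used BWA for alignment and MACS2 for peaks, called per library. The sources used here do not give how lists were merged, reads counted or Tn5 offsets handled. The study's methods describe keeping duplicates for other libraries, so PCR copies may count as reads and the floors cover counting error only.

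The authors' merged-peak table holds raw counts for each library, and these entered the tests unfiltered. It also gives the authors' RPM, computed from count plus 1, from which library totals were recovered, and the authors' fold enrichment, a ratio of RPM per base to a uniform background, used for an alternative. The deposited sign per library (peak called or not) equalled overlap with that library's list at every merged peak. The authors' lists hold a MACS2 score, fold enrichment and -log10 of p-values and q-values, which entered no test. The deposited log2 fold change, p-value and q-value columns hold the authors' own comparison and were not used.

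Stages and replicate numbers come from the sample titles. Libraries of a stage differed beyond counting noise (chi-square over its degrees of freedom, 5.66 to 18.6), so each counted once. Peaks were tested with edgeR 4.0.16 (R 4.3.3, quasi-likelihood, TMM, stage alone, Benjamini-Hochberg over all 104657 peaks, threshold 0.05), and again with the peaks of each first intron summed. Standard errors came from the log2 change and its F statistic. CPM used the TMM factors and log2 CPM a prior count of 2. The edgeR fit was tested on simulated data. Alternatives used RLE factors, library totals, median centring, loess offsets, filterByExpr, DESeq2 1.42.0, limma 3.58.1 on log2(fold enrichment + 1) and + 0.1, a replicate block, each library left out, and peaks on CM sequences alone. As a scaling, library totals were totals of reads in merged peaks, not those recovered from RPM. Figures and summaries used Python 3.11.15.

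Members, gene lists and tests were chosen with earlier results of these data known. Named were, among peaks past the threshold with no overlap between stages and a mean CPM of at least 1, the 8 with the largest log2 change in each direction, the 4 peaks of highest mean CPM, the 3 introns with the most peaks and the 3 with the most called peaks in each direction (ties kept), and every first-intron peak of the study's receptor genes. Coordinates are 1-based, and intron numbers are those of the annotation in the table. Sequences of the peaks are not shown here.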

Additional observations from a re-analysis of the deposited data

How the results depend on the processing

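The number of first-intron peaks higher post-molt was 885 and ranged from 352 to 808 with 1 library left out, and the number lower was 452 and ranged from 166 to 456. Other settings kept both counts within 1.5 times. For summed first introns, 196 were higher (66 to 182 with 1 library left out) and 79 lower (24 to 85). Loess offsets gave 298 higher introns, DESeq2 122 lower, limma on log2(fold enrichment + 1) 91 higher and 44 lower, and on log2(fold enrichment + 0.1) 86 higher and 46 lower. The cause of these differences was not tested. Leaving out libraries also leaves fewer samples to the fit.

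Same-numbered libraries did not deviate together (r of -0.09, -0.10 and -0.03 for replicates 1, 2 and 3). The numbers thus gave no sign of pairing between crabs, though this check cannot exclude it. A replicate block gave 816 higher peaks (10.2%, against 5.53% of all merged peaks) and 360 lower (4.52%, against 3.11%). For summed introns it gave 165 higher (8.08%, against 5.20% of the background) and 49 lower (2.40%, against 2.85%).

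The stage difference in the share of reads in first-intron peaks was 0.21 percentage points. It was -0.27 with the library total as denominator and -0.047 without pre-molt replicate 3 (-0.047 to 0.60 with 1 library left out). The difference in log2 CPM between first-intron and later-intron peaks was 0.03, and -0.012 within genes that hold both, an alternative chosen after seeing the data (-0.013 without pre-molt replicate 1, to 0.10, with 1 library left out). The difference in the share with a peak call was 2.25 percentage points (-1.25 to 6.13). None of these passed the exact permutation test, which cannot give a p below 0.1 with 3 against 3 libraries.

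Over 50 named peaks and introns and 791 refitted values, 703 kept their side of the threshold, 72 lost it and 15 gained it. The summed first intron of evm.TU.CM024167.1.279 turned from -0.02 to 0.50 (edgeR adjusted p = 0.0323) with loess offsets. First-intron peaks of the weakest quartile had a median of 23.7 reads per library, and 6.23% of them were higher and 0.50% lower. Whether depth set these shares was not tested.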
